A study of Mus musculus with 12 samples.

Results

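The 100 protein-coding cytochrome P450 genes in the gene count table, those whose symbol begins with Cyp and a family number, were followed in 12 mouse lungs out of 55487 genes counted. All 12 mice carried the same deletion of the whole miR-30a gene in every cell (miR-30a-/-, C57BL/6J strain), and wild-type lungs were not analysed here. Pups breathed 95% oxygen (FiO2; hyperoxia) or room air from postnatal day (PND) 1 to PND 5, recovered in room air, and their whole lungs were taken on PND 21. The 4 groups were room air males, room air females, hyperoxia-exposed males and hyperoxia-exposed females, with 3 lungs of separate mice in each. The comparisons ask how P450 expression in these lungs differed between the 6 hyperoxia-exposed and the 6 room air lungs, and between the sexes.

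Cytochrome P450 enzymes are haem proteins that insert an oxygen atom into small molecules, with electrons delivered by P450 reductase in the endoplasmic reticulum or by ferredoxin in mitochondria. Some families make or break down the body's own signals, such as retinoic acid, vitamin D, steroids, sterols and eicosanoids, and others oxidise foreign chemicals. The lung holds a small set of them, concentrated in club cells of the airway epithelium, where they can turn inhaled compounds such as naphthalene into toxic products, whereas many of the other members are best known from liver. Family 1 genes are induced through the aryl hydrocarbon receptor (AhR), and the enzymes of family 26 degrade retinoic acid, a signal that takes part in alveolar formation.

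Between 8763033 and 16741694 reads were counted on genes per lung, and 3 counts corresponded to 0.191 to 0.327 CPM (reads of a gene divided by its lung's upper-quartile-adjusted total). Mir30a and its neighbour Mir30c-2 had 0 counts in all 12 lungs, so the deletion could not be checked at this depth. Reads were also found on genes that lung should not use. The median density on 1490 olfactory and vomeronasal receptor genes, taken as the expected background, was 0.681 to 1.61 RPKM (reads per kilobase of exon, scaled to the lung's total count). These receptors took 0.555% ± 0.168 of all counts (SD, n = 3) in room air females, 0.766% ± 0.0901 in hyperoxia-exposed females, 0.770% ± 0.129 in room air males and 0.728% ± 0.215 in hyperoxia-exposed males. Lung markers were present in every library, with the 10 club and secretory cell markers summing to between 4989 and 14113 CPM and the 9 alveolar type 2 markers to between 5527 and 13857 CPM. Room air male 1 stood apart: 10 skeletal muscle markers summed to 1937 CPM there against 102 to 146 CPM in the other 11 lungs, and 9 markers of oesophageal and tracheal squamous epithelium to 1293 CPM against 59.6 to 84.0 CPM.

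All 100 P450 genes passed the expression filter, but passing it says little about use in lung, since all 100 also averaged at least 1 CPM. A member was therefore taken as lung-expressed when the receptor background accounted for under 25% of its summed reads, and as lying at the expected background when it accounted for 50% or more. This left 24 lung-expressed genes, 53 between and 23 at the background. Cyp2j6, at 24.96%, was the last inside the first limit and Cyp2d11, at 25.4%, the first outside it. Cyp2j11, at 49.4%, and Cyp2c65, at 50.9%, stood on either side of the second. Of 49 genes of family 2, 9 were lung-expressed, of 20 in family 4 also 9, and of 9 in family 3, the main drug-metabolizing enzymes of liver, 0. In the Cyp2c subfamily, known for arachidonic acid epoxygenases and liver drug metabolism, 12 of 15 genes lay at the background and 0 were lung-expressed. The share of 50-base windows that occur in other genes ran from 0% (Cyp2c70) to 60.3% (Cyp2c40) in this subfamily. In family 3 it ran from 0% (Cyp3a13) to 98.6% (Cyp3a41a). Counts of such genes depend on how reads matching several genes were treated, so these class counts are uncertain. The receptor genes are not the only possible yardstick. The 14 hepatocyte markers, which lung should also lack, had a median density 2.53 times that of the receptors, and Alb, the serum albumin gene, 2.45 times. Measured against this higher density, 4 P450 genes (Cyp2f2, Cyp4b1, Cyp2b10 and Cyp2s1) would meet the 25% limit. A further 8 would lie between 25% and 50%, and 12 of the 24 lung-expressed genes at 50% or more, among them Cyp51, Cyp39a1 and Cyp46a1.

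**Figure D1:**
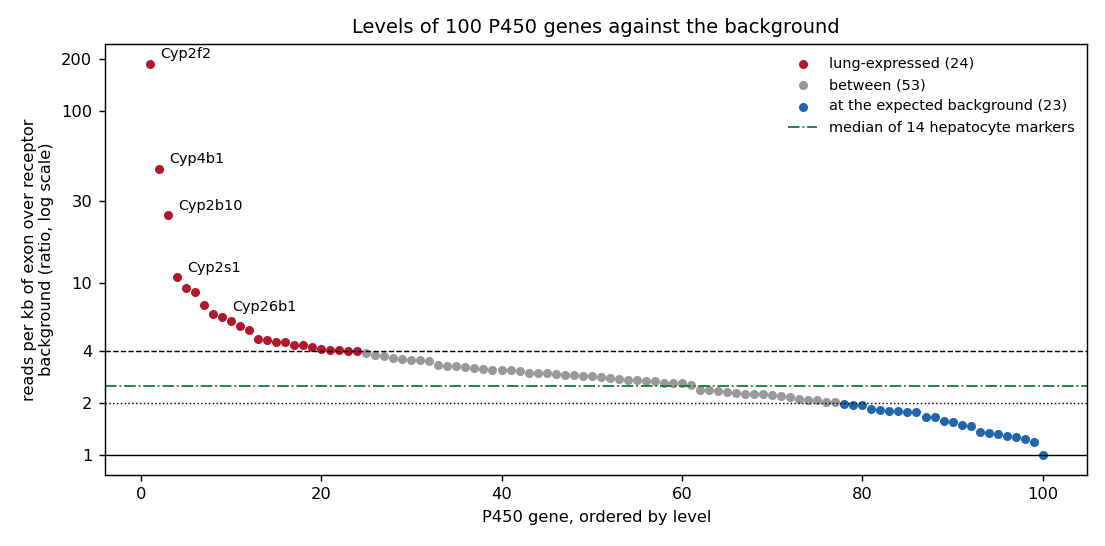
Reads per kilobase of exon of each of the 100 P450 genes, summed over 12 lungs and divided by the receptor background (log scale), in order of level, with lines at 1, 2 (50% background) and 4 times (25% background) and at the hepatocyte markers. Cyp2f2 stood 189 times above the receptor background, Cyp4b1 46.3 times and Cyp26b1 6.38 times, while most members lay between 1 and 4 times.

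Retinoic acid hydroxylases come first, since they hold the 1 P450 gene called over all lungs. The family has 3 members, of which Cyp26b1 was lung-expressed, and Cyp26a1 and Cyp26c1 lay between the classes, with 33.6% and 30.2% of their reads at the background density. The proximal promoters of Cyp26b1 and Cyp26a1 are shown for reference. Whether the 2 genes differed in their change, or why, was not tested. Each run covers 250 bases before to 50 after the gene's start (RefSeq, GRCm38.p6), written 5′ to 3′ on the gene's own strand. Capitals mark TATAAA, and in Cyp26a1 also a pair of direct repeats of AGTTCA with 5 bases between them (here on the opposite strand), a known form of retinoic acid response element. The runs lie at chr6:84593761-84594060 on the minus strand for Cyp26b1 and at chr19:37697558-37697857 on the plus strand for Cyp26a1.

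Cyp26b1: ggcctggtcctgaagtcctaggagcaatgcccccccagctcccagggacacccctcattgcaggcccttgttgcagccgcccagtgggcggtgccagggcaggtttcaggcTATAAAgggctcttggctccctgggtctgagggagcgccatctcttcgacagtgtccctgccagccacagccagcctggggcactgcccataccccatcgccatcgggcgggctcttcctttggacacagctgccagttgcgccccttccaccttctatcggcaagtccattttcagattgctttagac

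Cyp26a1: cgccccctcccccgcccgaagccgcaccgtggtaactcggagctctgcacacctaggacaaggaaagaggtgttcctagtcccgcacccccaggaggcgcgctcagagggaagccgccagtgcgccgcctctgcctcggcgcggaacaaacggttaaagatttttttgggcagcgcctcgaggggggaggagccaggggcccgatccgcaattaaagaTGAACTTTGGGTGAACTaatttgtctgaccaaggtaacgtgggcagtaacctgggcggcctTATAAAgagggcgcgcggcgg

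Searched on both strands, the spaced repeat occurred in 8 of 32851 promoters of the same length, or 0.0244%, and among the 77 P450 genes with a promoter in the table in that of Cyp26a1 alone. TATAAA occurred in 13.6% of all promoters and in 39.1% of the 87 promoters of P450 genes. A match is a run of letters and was not tested for binding.

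Cyp26b1 was up-regulated after hyperoxia. This gene (ENSMUSG00000063415, chromosome 6 from 84571414 to 84593908, minus strand, GRCm38) encodes the retinoic acid hydroxylase with the most reads of the family. Its expression was 22.8, 29.0 and 23.7 CPM in room air males and 25.5, 29.6 and 26.9 CPM in room air females. After hyperoxia it was 98.9, 46.4 and 54.3 CPM in males and 39.1, 24.9 and 57.1 CPM in females. The 6 room air lungs lay close together, 5 of the 6 hyperoxia-exposed lungs lay above all of them, and hyperoxia female 4 lay within their range. The means were 53.4 ± 25.1 CPM after hyperoxia and 26.3 ± 2.78 CPM in room air (SD, n = 6). Averaged over the sexes, the log2 fold change was 0.98 (SE 0.18), a 1.98-fold rise, with an adjusted p of 0.0262 (edgeR quasi-likelihood test, Benjamini-Hochberg over 45828 genes). It was the 1 P450 gene called in this comparison, in which 19 of all genes, or 0.0415%, were called. Of these 19, it was also the 1 gene called higher, or 0.00218% of those tested, and the other 18 were lower. The log2 fold change was 1.40 (SE 0.25) in males and 0.56 (SE 0.25) in females. Adjusted p values were 0.494 and 0.382, and unadjusted p values 1.08e-05 and 0.0346 (edgeR). The male p was the smallest of all genes tested in males. The difference between the sexes was -0.84 (SE 0.35, adjusted p 0.578, unadjusted p 0.0254 in edgeR's test). All 3 hyperoxia-exposed males lay above the room air males, as did 2 of 3 females above the room air females. The value in females was 0.23 without hyperoxia female 5, and the difference between the sexes was -0.44 without hyperoxia male 1 and -0.40 when the receptor share entered the model. With the receptor background taken off each lung, the means were 46.7 ± 26.03 CPM and 20.2 ± 4.07 CPM, and the call was lost (adjusted p 0.138, edgeR).

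The direction was kept in all fits run and the call was not. Leaving out each of the 12 lungs in turn kept the log2 fold change between 0.78 and 1.11, while the call was kept in 5 of these fits and missed in 7, with adjusted p from 0.0915 to 0.185 (edgeR) in the latter. Without room air male 1, the library with muscle and squamous markers, the adjusted p was 0.0371. The call was lost without any 1 of room air male 5, room air females 2, 5 and 6, hyperoxia male 2 and hyperoxia females 2 and 5, and kept without hyperoxia male 1, the highest value (log2 fold change 0.78, adjusted p 0.015, edgeR). It was also lost with RUVr of 1 and 2 factors (adjusted p 0.0685 and 0.0974) and when the receptor share entered the model (0.235). The log2 fold changes there were 0.97, 0.97 and 1.09, and these fits called 0.201%, 0.255% and 0.0371% of all genes.

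**Figure D2:**
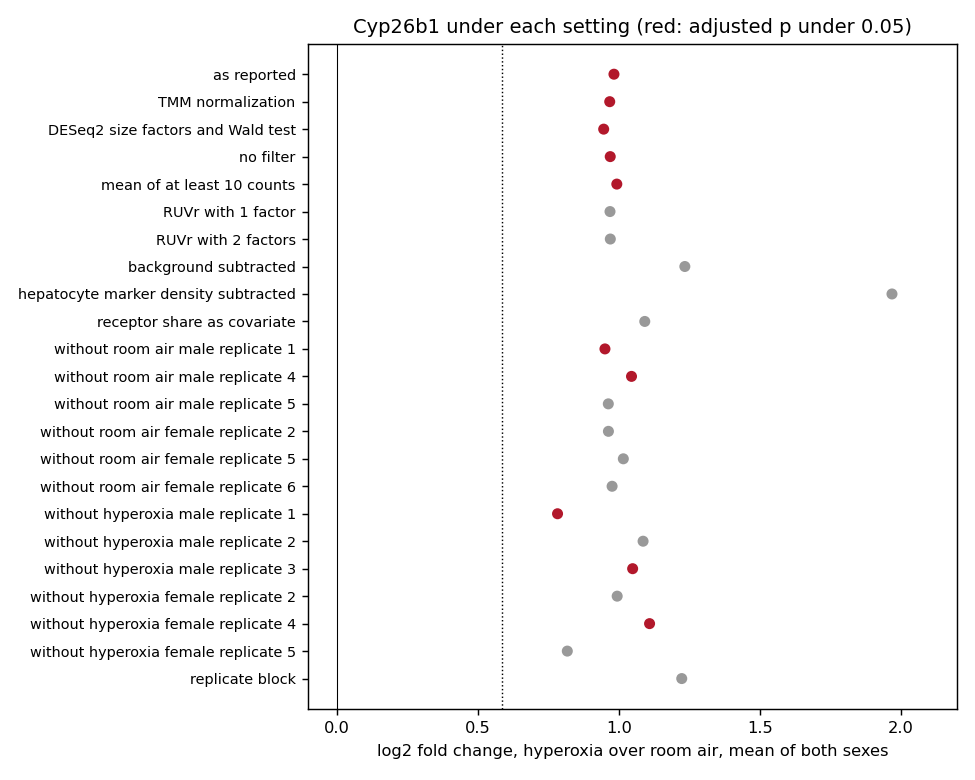
Log2 fold change of Cyp26b1 in hyperoxia against room air lungs, as a mean over the sexes, under each setting but 1 that left out a pair of lungs picked by their values, where red points had an adjusted p under 0.05 and the dotted line marks the 1.5-fold limit. All settings shown gave a rise above that limit, from 0.78 to 1.97, and among the fits without 1 lung 5 of 12 were red.

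Neither Cyp26a1 nor Cyp26c1 passed the test. Cyp26a1 ranged from 5.65 to 7.92 CPM in room air lungs and from 6.41 to 7.87 CPM in hyperoxia-exposed lungs (log2 fold change 0.10, SE 0.14). Cyp26c1 ranged from 5.66 to 8.8 CPM and from 5.86 to 8.05 CPM (-0.09, SE 0.15). Over all lungs and in females the exposure groups of both genes overlapped. In males those of Cyp26c1 overlapped, and those of Cyp26a1 did not, with 6.48, 5.65 and 5.78 CPM in room air and 7.24, 7.29 and 6.57 CPM after hyperoxia (0.23, SE 0.19, adjusted p 1, edgeR). Of 17 other genes of the retinoid pathway, covering retinol uptake, retinoic acid synthesis, binding proteins and receptors, 0 were called in any comparison of exposure (edgeR). There were 0 at an unadjusted p under 0.05 over all lungs, 2 lower in females, and 1 lower in males. The 2 in females were Aldh1a1, a retinaldehyde dehydrogenase, and Rara, a retinoic acid receptor, with log2 fold changes of -0.63 (SE 0.26) and -0.42 (SE 0.20), and the 1 in males was Dhrs9 (-0.44), with 50.9% of its reads at the background. Of all genes, 5.28% were lower in females and 1.8% in males at this threshold, and of lung-expressed genes 16.3% were lower in females. The median log2 fold change of the 17 genes over all lungs was -0.03, beside 0.03 for all genes tested.

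Cyp51 had the next smallest p. It encodes lanosterol demethylase, the P450 step of cholesterol synthesis. Its expression was 26.7, 25.6 and 19.2 CPM in room air males, 31.2, 35.0 and 25.04 CPM in room air females, 19.8, 17.6 and 18.5 CPM in hyperoxia-exposed males and 20.4, 21.1 and 17.7 CPM in hyperoxia-exposed females. In females every hyperoxia-exposed lung lay below every room air lung, and in males the groups overlapped through room air male 5. The log2 fold change over all lungs was -0.49 (SE 0.11, adjusted p 0.144, edgeR), so it was not called. Over all lungs the adjusted p was 1.23e-05 and 1.81e-06 with RUVr of 1 and 2 factors (edgeR). It was 0.00255 when the receptor share entered the model and 0.0249 without room air female 6 (edgeR). Log2 fold changes in these fits, from -0.55 to -0.43, stayed under the 1.5-fold limit, so Cyp51 was not called there. The log2 fold change was -0.63 (SE 0.15, adjusted p 0.209) in females and -0.35 (SE 0.16, adjusted p 1 by edgeR) in males. In females the call was reached by DESeq2 (-0.74, adjusted p 0.0486) and in edgeR's fit without room air female 6 (-0.76, adjusted p 0.0318). It was also reached with RUVr, which adds factors estimated from the residuals, at -0.62 (adjusted p 1.52e-05, edgeR) with 1 factor and -0.61 (adjusted p 3.25e-06) with 2. An exon of Cyp51 overlaps Akap9 on the opposite strand, and whether the counting used strand is not given in the sources used here. The other sterol enzymes gave smaller values. Cyp27a1, a mitochondrial sterol hydroxylase of bile acid synthesis, ranged from 17.2 to 26.1 CPM over all 12 lungs, with a log2 fold change of -0.09 (SE 0.11). Cyp39a1, an oxysterol hydroxylase, had 0.02 (SE 0.12), and Cyp46a1, the cholesterol hydroxylase best known from neurons, 0.02 (SE 0.10). Cyp7a1, which opens the main bile acid pathway in liver, lay at the background, with 84.6% of its reads there.

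The most abundant P450 genes were those of the airway epithelium, and none was called in any comparison in the model as reported. Cyp2f2, the club cell enzyme that activates naphthalene, took 20.3% to 40.7% of all P450 reads of a lung. Its expression was 416, 512 and 357 CPM in room air males, 441, 803 and 457 CPM in room air females, 460, 301 and 358 CPM in hyperoxia-exposed males and 343, 475 and 342 CPM in hyperoxia-exposed females. The groups overlapped in both sexes, and room air female 5 was the highest lung. The log2 fold change was -0.38 (SE 0.21) over all lungs, -0.55 (SE 0.30) in females and -0.20 (SE 0.29) in males. Over all lungs it was -0.21 without room air female 5, -0.23 when the receptor share entered the model and -0.03 with the hepatocyte marker density subtracted. The 10 club and secretory cell markers, which include no P450 gene, summed to 5749 to 14113 CPM in room air and 4989 to 7993 CPM in hyperoxia-exposed lungs. Their median log2 fold change was -0.31 over all lungs, -0.64 in females and 0.01 in males, and 0 of 10 were called. The medians of other lung cell markers in females were -0.56 for alveolar type 2 cells, -0.47 for alveolar type 1 cells, -0.43 for capillary endothelial cells, -0.30 for fibroblasts and 0.05 for alveolar macrophages. In males the same medians were 0.17, -0.03, 0.06, 0.13 and 0.14. The part of these cells in the Cyp2f2 values was not tested. In whole lung, fewer cells of a type and less RNA per cell cannot be told apart.

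Cyp2b10, which the nuclear receptor CAR is known to induce in liver, was the third by level per kilobase. It had 43.1, 58.4 and 48.9 CPM in room air males, 88.2, 90.5 and 70.2 CPM in room air females, 61.8, 38.0 and 56.9 CPM in hyperoxia-exposed males and 59.1, 56.1 and 42.5 CPM in hyperoxia-exposed females. The room air females lay above the other 9 lungs, which overlapped. The log2 fold change was -0.66 (SE 0.20, adjusted p 0.33) in females and 0.06 (SE 0.20, adjusted p 1) in males, and the difference between them was -0.72 (SE 0.28, adjusted p 0.578, all by edgeR). With RUVr of 1 and 2 factors it was called lower in females (adjusted p 5.34e-08 and 2.71e-08, edgeR), where the same fits called 4.15% and 4.24% of all genes, and its difference between the sexes was called too, at -0.70 and -0.71 (adjusted p 5.48e-05 and 3.39e-05). That difference was smaller with the receptor background subtracted, at -0.46, and when the receptor share entered the model, at -0.29 (adjusted p 1, edgeR). Over all settings its log2 fold change in females ran from -0.81 to -0.25. Cyp4b1, which oxidises fatty acids and the plant toxin ipomeanol, ranged from 92.2 to 166 CPM in room air and from 73.8 to 141 CPM after hyperoxia. Its log2 fold change was -0.19 (SE 0.17), and 0.088 with the hepatocyte marker density subtracted. Cyp2s1, an epithelial enzyme, ranged from 47.2 to 106 CPM in room air and from 46.0 to 65.7 CPM after hyperoxia (-0.33, SE 0.15, adjusted p 0.927, edgeR, and -0.17 without room air female 5). Cyp2d22, a family 2 enzyme of xenobiotic metabolism, went the other way in males, with 33.7, 39.5 and 38.5 CPM in room air and 55.3, 40.3 and 51.2 CPM after hyperoxia (0.40, SE 0.17, adjusted p 1, edgeR). These males did not overlap, though 40.3 CPM lay just above 39.5 CPM, and in females the groups overlapped (0.07, SE 0.17). Exons of Cyp2f2 and Cyp2s1 overlap genes on the opposite strand.

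**Figure D3:**
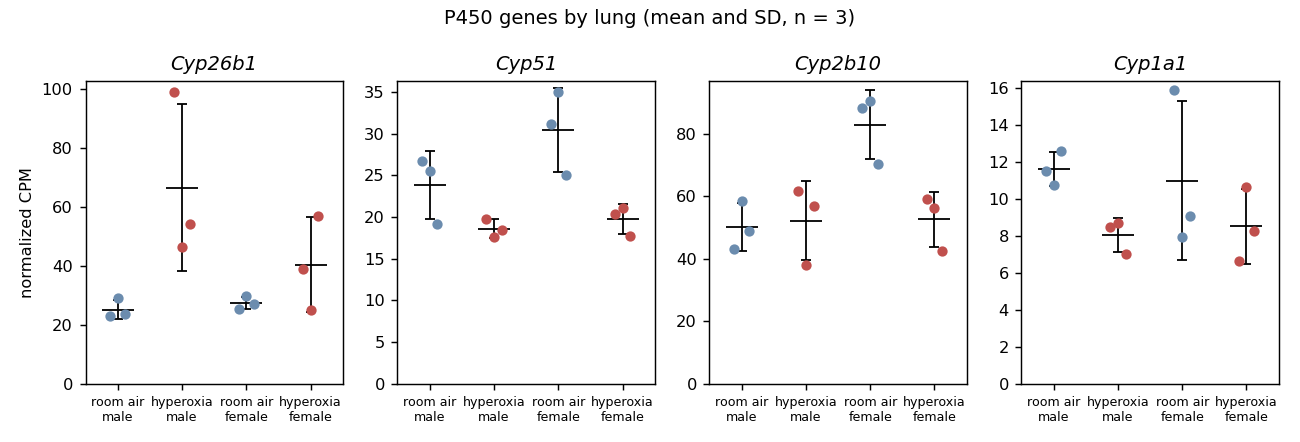
Normalized CPM of Cyp26b1, Cyp51, Cyp2b10 and Cyp1a1 in each lung (points) by group, with the mean and SD (bars, n = 3), on axes that start at 0. Cyp26b1 was above the room air range in 5 of 6 hyperoxia-exposed lungs, and the room air females of Cyp2b10, at 70.2 to 90.5 CPM, lay above the other 9 lungs.

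The AhR-induced genes of family 1 were low, with all 3 members between the classes. Cyp1a1, which oxidises aromatic hydrocarbons, had 33.2% of its reads at the background. It had 11.5, 10.8 and 12.6 CPM in room air males, 15.9, 7.95 and 9.09 CPM in room air females, 8.49, 8.71 and 7.01 CPM in hyperoxia-exposed males and 6.65, 10.7 and 8.25 CPM in hyperoxia-exposed females. The males did not overlap, being lower after hyperoxia, and the females did. The log2 fold change over all lungs was -0.45 (SE 0.15, adjusted p 0.881, unadjusted p 0.00655, edgeR), so it was not called, and it was -0.26 without room air female 2. With the receptor background taken off, it averaged 4.77 ± 1.42 CPM after hyperoxia and 8.13 ± 2.88 CPM in room air (SD, n = 6). With the hepatocyte marker density taken off instead, the hyperoxia-exposed lungs averaged -0.49 ± 1.96 CPM and the room air lungs 3.31 ± 2.84 CPM, the latter all above 0. After hyperoxia, the range of -2.74 to 2.50 CPM spanned 0, so by this higher density its level there could not be told from background reads, while by the receptor density all 6 lungs stayed above 0, at 3.48 to 6.90 CPM. Cyp1a2 ranged from 6.49 to 11.3 CPM in room air and from 8.51 to 10.8 CPM after hyperoxia (0.21, SE 0.13). With the receptor background taken off, Cyp1a2 had 8.11 CPM in room air male 1 and 5.03 to 5.36 CPM in the other room air lungs. After hyperoxia it had 5.51 to 7.69 CPM on that scale, so the overlap came from room air male 1 alone. Cyp1b1, which also acts on oestrogens, ranged from 13.3 to 18.4 CPM and from 14.6 to 16.9 CPM, with 44.5% of its reads at the background, and its fold change of 0.03 (SE 0.10) turned to -0.0089 in DESeq2 and to -0.012 when the receptor share entered the model.

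The promoter of Cyp1a1 (chr9:57697363-57697662, plus strand) is shown with TATAAA and the core of the xenobiotic response element, GCGTG, in capitals.

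Cyp1a1: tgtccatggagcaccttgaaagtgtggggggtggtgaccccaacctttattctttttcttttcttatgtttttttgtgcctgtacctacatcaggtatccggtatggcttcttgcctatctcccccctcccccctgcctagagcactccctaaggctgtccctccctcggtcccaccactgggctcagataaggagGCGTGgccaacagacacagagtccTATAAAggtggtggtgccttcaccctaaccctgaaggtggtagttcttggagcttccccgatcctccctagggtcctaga

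On either strand, GCGTG occurred in 32.4% of all promoters and in 20.7% of the P450 promoters, so its presence is common. Of 15 genes of the AhR axis outside the family, 0 were called (edgeR). At an unadjusted p under 0.05, 1 was lower over all lungs (2.52% of all genes and 6.77% of lung-expressed genes were), Hsp90ab1, a chaperone of the receptor (-0.49, SE 0.19), and Ahr itself had -0.03 (SE 0.20). In females 3 were lower (Hsp90ab1 with -0.83, the AhR target Tiparp with -0.54 and Nfe2l2, the regulator of antioxidant genes, with -0.55), and in males 1 (Ugt1a6a with -0.47). Among all genes 5.28% were lower in females, among lung-expressed genes 16.3%, and in males 1.8% of all genes.

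Genes of family 4 hydroxylate fatty acids and eicosanoids. Their lung-expressed members had log2 fold changes over all lungs from -0.19 (Cyp4b1) to 0.16 (Cyp4a29). Some members outside that class, such as Cyp4x1, are given further below. Cyp4f18, known for leukotriene B4 hydroxylation in myeloid cells, had a log2 fold change of -0.17 (SE 0.11), Cyp4f13 0.05 (SE 0.10), Cyp4f16 -0.06 (SE 0.10), Cyp4f17 0.00 (SE 0.10) and Cyp4v3 -0.03 (SE 0.11). None was called. Cyp4f39, which acts on very long fatty acids of the skin barrier, had -0.03 (SE 0.12) over all lungs, with 0.29 (SE 0.17) in females and -0.35 (SE 0.17) in males. Its difference between the sexes was 0.63 (SE 0.24, adjusted p 0.578, edgeR). Room air male 1 was its highest lung, at 21.8 CPM against 11.1 to 17.3 CPM in the other 11. Without that library the difference between the sexes was 0.38 (adjusted p 0.857, edgeR), while with RUVr of 1 and 2 factors it was called, at 0.63 and 0.62 (adjusted p 0.0245 and 0.0118, edgeR), in fits that called 4.59% and 4.84% of all genes. Cyp4a29 and Cyp4a32 had 0.16 (SE 0.16) and 0.06 (SE 0.15). The values of Cyp4f16, Cyp4a29 and Cyp4a32 are uncertain, since 17.4%, 13.8% and 43.8% of their 50-base windows occur in other genes. Exons of Cyp4f18 overlap Zfp961 on the opposite strand, and those of Cyp4v3 overlap Gm45753 on the same strand.

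The rest of the lung-expressed set also gave no call. Cyp20a1, an orphan enzyme, had a log2 fold change over all lungs of -0.22 (SE 0.11). Cyp2t4, whose exons overlap Egln2 on the opposite strand, had -0.11 (SE 0.12). Cyp2j6, of an epoxygenase subfamily, had -0.11 (SE 0.10) and Cyp2e1, the ethanol-inducible enzyme, -0.10 (SE 0.13). Cyp2a5, which oxidises coumarin and nicotine, had -0.24 (SE 0.13) and its close relative Cyp2a4 0.12 (SE 0.15). These values cannot be assigned to 1 gene with certainty, since 37% and 38% of their 50-base windows recur in other genes.

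Over all 24 lung-expressed P450 genes, the median log2 fold change over all lungs was -0.08, as it was (-0.08) for the 12893 tested genes that met the same rule. At an unadjusted p under 0.05, 1 was higher and 3 lower, where 0.954% and 6.77% of those 12893 genes were. In the other classes, 2 of 53 and 1 of 23 members were higher and 1 and 0 lower, and over all 100 members 4 were higher and 4 lower, beside 2.67% and 2.52% of all genes. Those members outside the lung-expressed class were Cyp1a1, Cyp2b19 (0.30, SE 0.12), known from skin, Cyp11a1 (0.27, SE 0.12), the first enzyme of steroid synthesis, and Cyp4x1 (0.31, SE 0.15), with adjusted p from 0.881 to 0.927 (edgeR). No P450 gene separated the 6 hyperoxia-exposed from the 6 room air lungs without overlap, beside 0.0938% of all genes that did so higher and 0.12% lower.

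In females, 0 P450 genes were called by edgeR and 1 by DESeq2 (Cyp51), beside 0.00218% of all genes in edgeR and 0.695% of the 13959 genes that DESeq2 gave an adjusted p. At an unadjusted p under 0.05, 8 were higher and 3 lower, beside 7.32% and 5.28% of all genes. The 3 lower were lung-expressed (Cyp2b10, Cyp51 and Cyp2s1). Of the 8 higher, Cyp26b1 was lung-expressed and the other 7 were not. Between the classes lay Cyp2j7 (0.69), Cyp2c66 (0.63), Cyp2c70 (0.62), Cyp3a57 (0.61), Cyp4f14 (0.45) and Cyp24a1 (0.45), the vitamin D hydroxylase, and at the background Cyp4x1 (0.50), with SE from 0.18 to 0.27. Cyp24a1, with 43.4% of its reads at the background, had 8.13, 7.25 and 8.85 CPM in room air females and 10.4, 10.7 and 11.9 CPM after hyperoxia, without overlap. Exons of Cyp24a1 and Cyp4x1 overlap Pfdn4 and Cyp4x1os on the opposite strand, and 19.5% of the windows of Cyp2c66 occur in other genes, so these values are uncertain. The classes also differed in their medians, which were -0.13 for the lung-expressed genes, 0.24 for those between and 0.34 for those at the background, where 22 of 23 values were above 0. The receptor share was also higher in hyperoxia-exposed than in room air females. When the log2 receptor share entered the model, the medians became -0.04, -0.01 and -0.09, and the values of the 6 genes named between the classes became 0.18 to 0.37. The classes were set by the read density on these same receptors, and the share differed between the exposures. Background and exposure therefore cannot be told apart in this fit. By non-overlap of the 3 and 3 lungs, 16 members were higher and 4 lower, beside 10.8% and 6.42% of all genes. Of the 24 lung-expressed members, 1 was higher and 3 lower at an unadjusted p under 0.05, beside 1.41% and 16.3% of the 12893 genes that met the same rule.

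In males, 0 P450 genes were called by edgeR and 0 by DESeq2, beside 0% of all genes in edgeR. At an unadjusted p under 0.05, 2 were higher (Cyp26b1 and Cyp2d22) and 3 lower (Cyp51, Cyp1a1 and Cyp2d40, the last with -0.66, SE 0.29), beside 0.899% and 1.8% of all genes. By non-overlap, 3 were higher and 2 lower, beside 2.73% and 3.89% of all genes. The class medians were -0.01, -0.06 and -0.21, or -0.06, 0.01 and -0.09 when the receptor share entered the model.

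**Figure D4:**
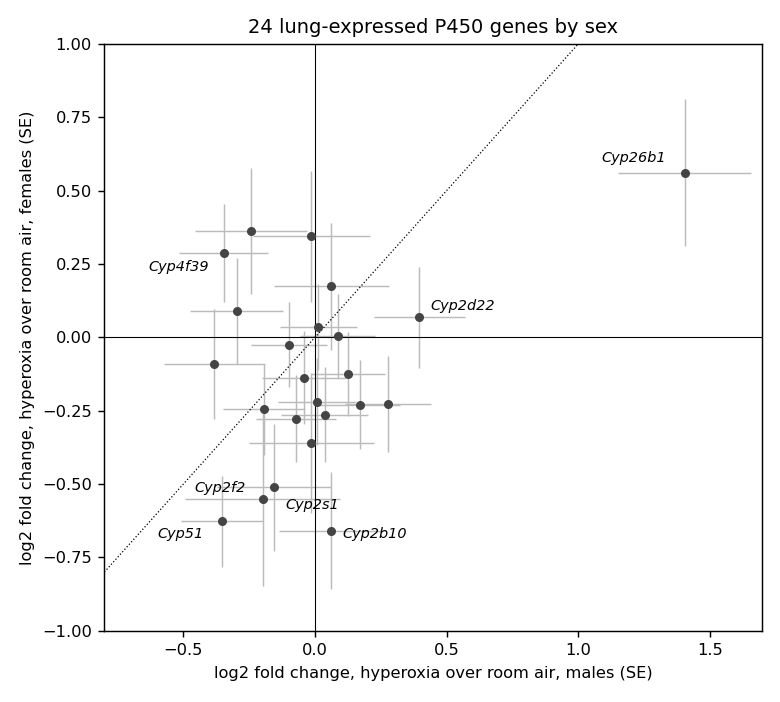
Log2 fold change in hyperoxia against room air lungs of the 24 lung-expressed P450 genes in males (horizontal) and females (vertical), with SE, and a dotted line of equal change. Cyp26b1, at 1.40 in males and 0.56 in females, lies apart from the other 23 genes.

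For the difference between the sexes in their response, 0 P450 genes were called by edgeR or DESeq2, beside 0% of all genes in edgeR. Unadjusted, 10 had a p under 0.05 and were higher in females and 3 lower, beside 6.06% and 2.4% of all genes. The 3 lower were lung-expressed (Cyp26b1, Cyp2b10 and Cyp39a1), and of the 10 higher Cyp4f39 was. The others were Cyp4a14 (0.62), Cyp24a1 (0.66), Cyp3a57 (0.78), Cyp2j7 (0.85), Cyp2c66 (0.85) and Cyp2d40 (1.03) between the classes and Cyp2j13, Cyp2j5 and Cyp3a59 at the background, with values from 0.73 to 1.09. Of these, Cyp2d40 shares 14.5% of its windows with other genes and Cyp3a59 30%. When the receptor share entered the model, Cyp24a1 had 0.34 and Cyp3a57 0.48. Over all settings the lowest values were 0.18 for Cyp4a14, 0.28 for Cyp2j7, 0.37 for Cyp2c66 and 0.71 for Cyp2d40, and none turned in sign. The class medians were -0.22, 0.33 and 0.48, beside 0.12 for all genes, and were -0.02, -0.0034 and -0.04 when the receptor share entered the model.

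Between females and males over both exposures, 0 P450 genes were called by edgeR or DESeq2, beside 1.22% of all genes in edgeR. With an unadjusted p under 0.05, Cyp2b10 was higher in females (0.37, SE 0.14, adjusted p 0.424, edgeR), and 4 genes were lower (Cyp2c66, Cyp4a12a, Cyp2c37 and Cyp3a41a), beside 4.05% and 2.83% of all genes. Cyp4a12a, an androgen-dependent fatty acid hydroxylase in kidney and liver, had -0.36 (SE 0.16) and shares 48.9% of its 50-base windows with Cyp4a12b. Cyp2c37 shares 30.1% with other genes, and Cyp3a41a shares nearly all of its windows, 98.6%.

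The genes at the background are given for comparison only. Their class limit leaves room for reads above the receptor density, so their counts and changes do not show what background reads alone give. The 3 with the most reads were Cyp4x1, Cyp3a11, a main drug-metabolizing enzyme of mouse liver, and Cyp2d12, with 1433, 1407 and 1318 reads over 12 lungs. The receptor background made up 50.9%, 63.1% and 51.3% of these reads, and the rest lay above it. Cyp3a11 and Cyp2d12 had log2 fold changes over all lungs of -0.05 and -0.00, and Cyp4x1 0.31 (unadjusted p 0.0402, edgeR), with 0.50 in females.

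Partners of the P450 enzymes were counted from lists of fixed membership, and 0 genes of these lists were called in any comparison (edgeR). Among 8 electron donors, 0 had an unadjusted p under 0.05 over all lungs, and 4 were lower in females (Cyb5a with -0.47, Cyb5b with -0.59, Cyb5r1 with -0.37 and Fdx1 with -0.37) with a median log2 fold change over the 8 of -0.38, beside 0.05 in males. For all genes the share lower in females was 5.28%. Lung-expressed genes of all kinds had a median of -0.22 in females, where 16.3% of them were lower at that threshold. Of 15 nuclear receptors of drug and lipid metabolism, 3 were higher in females (Nr1i2 with 0.38, Nr1i3 with 0.63 and Ppara with 0.32), the receptors PXR, CAR and PPARα, though Nr1i3 lay at the background, and 0 were lower. Of all genes, 7.32% were higher in females, and 10 of the 15 receptors had 50% or more of their reads at the hepatocyte marker density. Of 20 epoxide hydrolases and conjugating enzymes, 0 were higher and 2 lower over all lungs, Gstm2 (-0.31, SE 0.12) and Gstp1 (-0.35, SE 0.13), both glutathione transferases, beside 2.52% of all genes and 6.77% of lung-expressed genes lower. In females 1 was higher (Ugt1a1 with 0.71) and 5 were lower, among them the glutathione transferases Gstm1 with -0.55, Gstp1 with -0.54, Gstt1 with -0.46 and Mgst1 with -0.53, and in males 1 was higher, Fmo2, the lung's flavin monooxygenase (0.85, SE 0.33), where 0.899% of all genes were. The 2 P450 enzymes named otherwise, Ptgis (prostacyclin synthase) and Tbxas1 (thromboxane synthase), had log2 fold changes over all lungs of 0.04 and -0.04 and 0 called.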

How the data were processed

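RNA-Seq counts of 12 miR-30a-/- lungs, 3 per sex and exposure, were grouped by the sample titles and characteristics. Per the labels and methods, adapters were removed by the authors in Trim Galore, STAR placed the reads on mm10, and featureCounts assigned them to genes. The deposited values are raw read counts per gene, not normalized. Versions and the strand setting are not given in the sources used here. The labels name an NEBNext directional kit with rRNA depletion and the methods a QIAseq stranded kit.

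Differential expression was tested by quasi-likelihood in edgeR with robust dispersions, fitting 4 group means (R 4.3.3, edgeR 4.0.16, limma 3.58.1) after upper-quartile normalization, on 45828 genes kept by filterByExpr, with a biological coefficient of variation of 0.177. Genes were called at an adjusted p (Benjamini-Hochberg over all genes) under 0.05 and a fold change over 1.5, the study's limits. The comparison over all lungs is the mean of both sexes' log2 fold changes. No RUVr factor was used, since the number is not given in the sources used here, and the study's ComBat-seq step on data joined with wild-type lungs was not repeated. SE is the log2 fold change over the square root of F. Exon lengths and positions came from GENCODE M21 for 55227 genes, and sequences from RefSeq. The floors cover counting error only, while SE and SD also include variation between lungs.

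The text names every lung-expressed member, families 1 and 26, members with an unadjusted p under 0.05 in any of 5 comparisons that were not at the background, the 3 members at the background with most reads, and some others as members of a count. The members, lists and limits were chosen with earlier results of these data known. Alternatives were TMM, DESeq2 1.42.0, other filters, RUVr with 1 or 2 factors, background subtraction, the receptor share as covariate, the lungs compared alone, a replicate block and each lung left out. Scripts were tested on simulated data. Figures were drawn with matplotlib 3.10.9 in Python 3.11.15, and tables with numpy 2.4.6 and pandas 2.3.3.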

Additional observations from a re-analysis of the deposited data

Results flagged for a closer look

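Reads were also counted on 34 P450 rows outside the protein-coding rule, 33 pseudogenes and 1 antisense gene. They were not among the 100 members, though those that passed the filter count among the 45828 genes tested. Among the 34 rows, 5 pseudogenes stood above the receptor background by the limit used for the lung-expressed genes and averaged at least 1 CPM. Cyp4a29-ps1, at 22.2% but 0.927 CPM, missed the second limit. The background made up 18.31% of the reads of Cyp4b1-ps1, 20.97% for Cyp21a2-ps, 22.33% for Cyp2d67-ps, 23.18% for Cyp4a28-ps and 23.77% for Cyp4f38-ps. Against the hepatocyte marker density the shares were 46.2% for Cyp4b1-ps1 and 53.0% to 60.1% for the other 4. With 3 lungs a group, no outlier test of single lungs was run.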

How the results depend on the processing

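The count of P450 genes called over all lungs (1, Cyp26b1) was 1 with TMM, with DESeq2, without the filter, with a mean of at least 10 counts and by the adjusted p alone. It was 0 with RUVr of 1 or 2 factors (Cyp26b1 adjusted p 0.0685 and 0.0974), after subtraction of the receptor background (0.138), when the receptor share was a covariate (0.235), and, chosen after seeing the data, with the hepatocyte marker density subtracted (0.42), and ran from 0 to 1 over the fits without 1 lung. In females the count of 0 became 1 with DESeq2 (Cyp51), 7 with RUVr of 1 factor and 7 with 2, 5 of them higher and 2 lower, where these fits called 0.695%, 4.15% and 4.24% of all genes, and ran from 0 to 1 without 1 lung. In males it became 1 in the fit of the 6 male lungs alone (Cyp26b1, adjusted p 0.0293), beside 0.00458% of all genes. The interaction count of 0 became 11 with RUVr of 1 factor and 13 with 2, all but Cyp2b10 higher in females, beside 4.59% and 4.84% of all genes. The lung-expressed count of 24 became 77 with a share under 50%, 100 with a mean of at least 1 CPM alone and 4 with the hepatocyte marker density. The median of the lung-expressed genes in females was -0.038 with that covariate, against -0.13. Cyp1b1 turned from 0.03 to -0.0089 with DESeq2 and to -0.012 with the covariate, and Cyp4b1 from -0.19 to 0.088 with the hepatocyte marker density subtracted. The causes were not tested.

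Lungs with the same number in a sex (female 2, female 5 and male 1) did not vary together, with correlations of 0.0596, -0.166 and -0.303 across genes, so the numbers were not taken as pairing. With the replicate block, the count was 0 over all lungs (log2 fold change of Cyp26b1 1.22, adjusted p 1) and 3 in females (Cyp26b1, Cyp2b10 and Cyp51, beside 1.09% of all genes), on 6 and 4 lungs. At this depth, 3 counts stood at up to 0.327 CPM.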
